A study of Saccharomyces cerevisiae with 6 samples.

Results

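Ergosterol is the main sterol of budding yeast membranes, and this account covers the genes for its synthesis, for the uptake and storage of sterols, and for the regulators of both. The members were chosen by gene symbol, as 25 genes of synthesis (every ERG gene with a number, and HMG1, HMG2, IDI1, MVD1 and NCP1), the regulators UPC2, ECM22, SUT1 and SUT2, the transporters AUS1 and PDR11, the acyltransferases ARE1 and ARE2 and the hydrolases YEH1 and YEH2. These are 35 of the 5449 genes tested, each with 1 probe set. The symbols alone decide membership, but the list was drawn up with results of the same genotype contrast known, so its counts are a description of these genes and support nothing beyond them.

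The arrays hold Saccharomyces cerevisiae RNA from 3 samples of a strain deleted for VPS4 (replicates 4, 5 and 6) and from 3 wild type samples (replicates 3, 4 and 6), hybridised to Affymetrix expression arrays. Both genotypes were harvested in mid-log growth at 26 °C, in synthetic YNB medium that contained the amino acids the cells needed. Strain background, mating type, the way VPS4 was deleted and the number of clones are not given in the sources used here, nor is it stated that replicates were separate cultures, so the spread behind each p-value is that of these samples and may be technical. Vps4 is the ATPase that recycles the ESCRT-III complex from endosomal membranes, and the series title places the comparison in work on ESCRT mutants and amino acid recycling.

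Sterol synthesis runs from acetyl-CoA through mevalonate and farnesyl diphosphate to squalene, which is oxidised and cyclised to lanosterol and then converted, by demethylation, methylation and moves of double bonds, to ergosterol. The later steps need oxygen and haem, and yeast takes up sterol from its surroundings when these are short. Upc2 and Ecm22 activate ERG genes when sterol is low, Sut1 and Sut2 act on sterol uptake, and excess sterol is stored as steryl esters in lipid droplets.

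All values are the authors' log2 expression values, and a difference is VPS4 deletion minus wild type on that scale with the moderated standard error (SE) of limma. VPS4 itself stood at 1.75, 1.42 and 1.29 in deletion replicates 4, 5 and 6, against 11.46, 11.48 and 11.39 in wild type replicates 3, 4 and 6, so every array carried the VPS4 level its label gives. Wild type replicate 3 stood apart: over all tested probe sets it lay a median of 0.11 log2 from the mean of the other 2 wild type arrays, which lay 0.045 from each other, and each result is given with and without it where it matters. Array medians over the tested probe sets were 9.154, 9.145 and 9.149 in deletion replicates 4, 5 and 6. Those of wild type replicates 3, 4 and 6 were lower, at 9.136, 9.122 and 9.133. The number of arrays limits the precision, and an exact two-sided permutation test of 3 against 3 arrays cannot give a p below 0.1.

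Between the genotypes, 3 of the 35 sterol genes rose (8.57% of the list), 1 fell (2.86%) and 31 did not pass the test. SUT1, a zinc cluster regulator of sterol uptake, fell 1.48-fold in the deletion, the largest difference among the 35 genes. ERG4, ERG27 and ERG25, enzymes of the late pathway, rose by 0.22, 0.19 and 0.09. None of these 3 was called when any one array other than wild type replicate 3 was left out. In those fits 17 to 81 of all tested probe sets were called higher, against 155 over all arrays. The test was limma's, with Benjamini-Hochberg adjustment over all 5498 tested probe sets and a threshold of 0.05 on the adjusted p. At this threshold 2.82% of all tested probe sets were called higher and 1.46% lower. Without wild type replicate 3 these shares were 11.9% and 10.1%, so calls made only in that fit, given below, were common across the array. At an unadjusted p under 0.05 there were 7 members (20.0% of the list), close to the 17.4% of all tested probe sets.

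The median difference over the 35 genes was 0.022, against -0.0019 over all tested probe sets. Of the members, 25 (71.4%) differed by less than 0.1 log2 in either direction, as did 67.8% of all tested probe sets. The groups did not overlap for 5 members that were higher in the deletion (ERG1, ERG25, ERG27, ERG4 and SUT2) and for 4 that were lower (ERG8, ECM22, SUT1 and AUS1), which is 14.3% and 11.4% of the list. Over all tested probe sets these shares were 13.0% and 11.8%. Every member lay above background on all 6 arrays, with values from 5.50 to 12.87. On each array 97.5% to 98.0% of all tested probe sets lay above background too. Levels of different probe sets are not compared here.

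**Figure D1:**
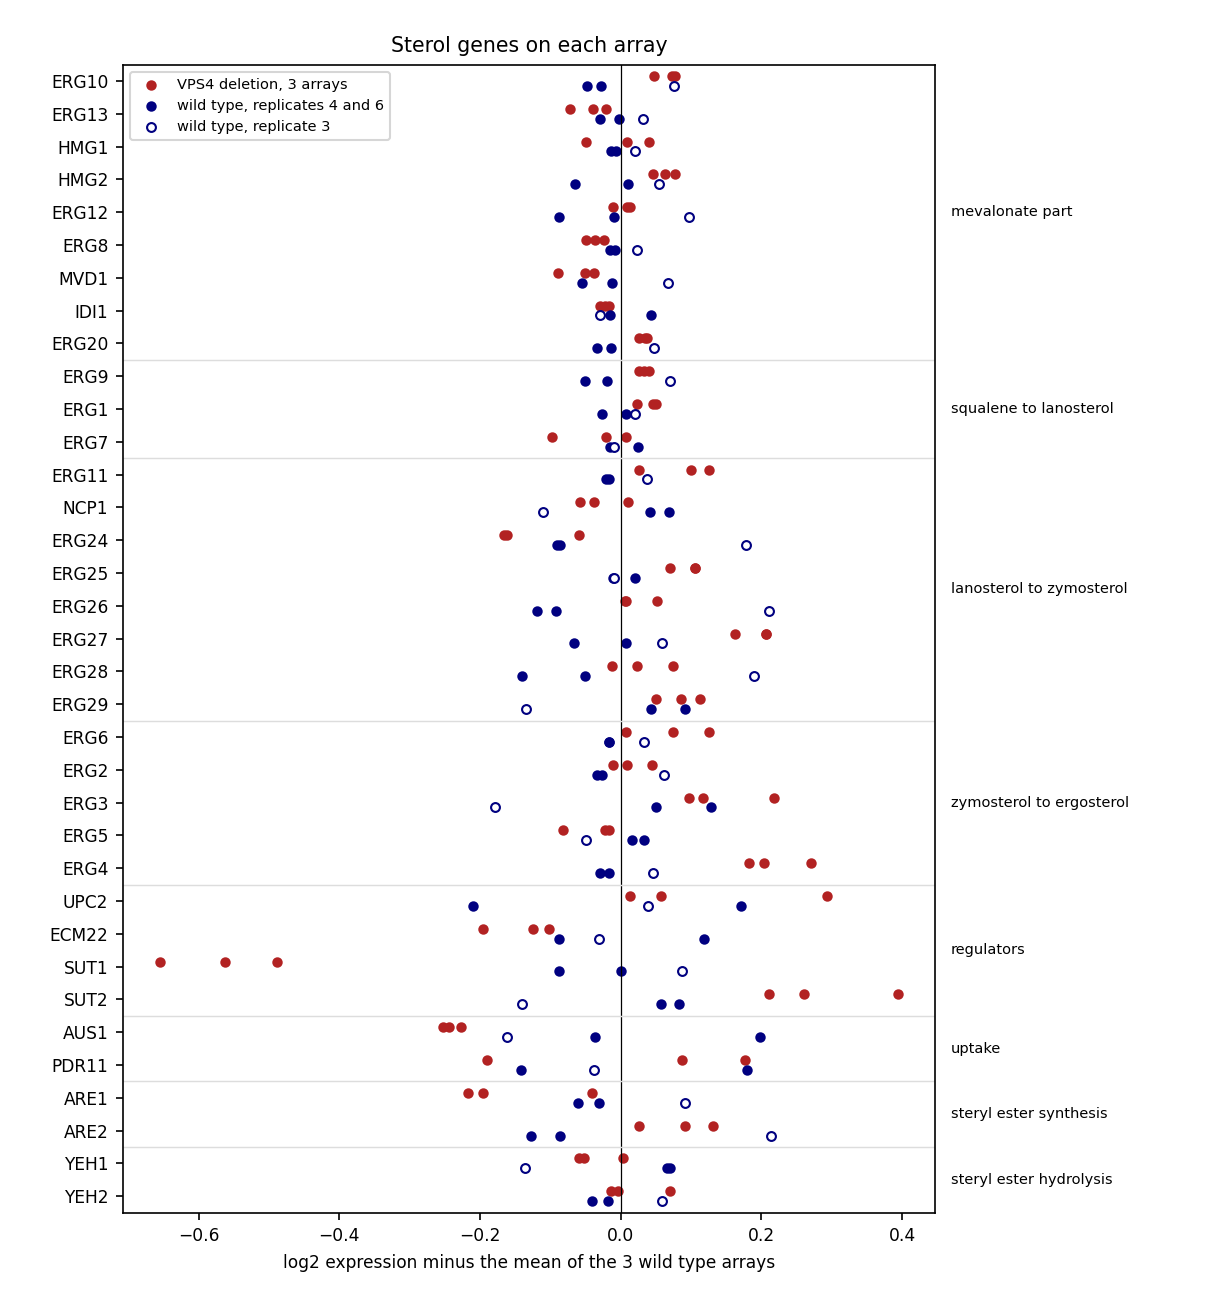
Each point is 1 array, plotted as its log2 expression minus the mean of the 3 wild type arrays, for the 35 sterol genes ordered by role. The deletion arrays (upper row of each gene) lie below every wild type array for SUT1 and above every one for ERG4, ERG27, ERG25 and SUT2, while wild type replicate 3 (open circle) lies far from the other wild type arrays for ERG24, ERG26, ERG28 and ERG3.

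The mevalonate part of the pathway, shared with the synthesis of other isoprenoids, showed 0 of 9 genes past the test in either direction (limma), and its differences ran from -0.06 to 0.07. HMG1 and HMG2 encode the 2 HMG-CoA reductases, the rate-limiting enzymes of the mevalonate part. HMG1 stood at 10.64, 10.61 and 10.55 in deletion replicates 4, 5 and 6, against 10.62, 10.60 and 10.59 in wild type replicates 3, 4 and 6. The groups overlapped, and the 95% interval of the HMG1 difference ran from -0.08 to 0.08. HMG2 stood at 8.00, 8.02 and 7.99 in the deletion, against 8.00, 7.88 and 7.95 in wild type. Its difference of 0.06 had an interval of -0.06 to 0.19, and the highest wild type array reached the level of the deletion arrays.

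Of the other genes of this part, ERG10, which encodes the acetoacetyl-CoA thiolase, differed by 0.07 ± 0.04 (SE), and ERG13, for HMG-CoA synthase, by -0.04 ± 0.03. The kinases ERG12 and ERG8 differed by 0.00 ± 0.05 and -0.04 ± 0.03. MVD1, for the mevalonate diphosphate decarboxylase, differed by -0.06 ± 0.04, the isomerase IDI1 by -0.02 ± 0.03 and ERG20, for farnesyl diphosphate synthase, by 0.03 ± 0.02. All 9 intervals lay within 0.3 log2 of 0. Wild type replicate 3 was the highest wild type array for 8 of the 9 genes, and without it ERG10 rose by 0.10 ± 0.02 (SE; limma adjusted p = 0.00721; 0.00721 to 0.668 over the alternatives).

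From squalene to lanosterol, 0 of 3 genes passed (limma). ERG9 encodes squalene synthase, ERG1 squalene epoxidase, the target of terbinafine, and ERG7 lanosterol synthase. Their differences were 0.03 ± 0.03, 0.04 ± 0.02 and -0.04 ± 0.04 (SE). The deletion arrays of ERG1 lay above the wild type arrays by a gap of 0.0036, and the gene did not pass (limma adjusted p = 0.406).

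Of the 8 genes between lanosterol and zymosterol, 2 rose, 0 fell and 6 did not pass. ERG25, ERG26 and ERG27 encode the enzymes that remove the methyl groups at C-4 (the sterol methyl oxidase, the decarboxylating dehydrogenase and the 3-keto reductase), and ERG28 encodes the scaffold that holds them together. ERG27 stood at 11.01, 10.97 and 11.01 in deletion replicates 4, 5 and 6, against 10.86, 10.74 and 10.81 in wild type replicates 3, 4 and 6. All deletion arrays lay above all wild type arrays, and ERG27 rose 1.14-fold, by 0.19 ± 0.04 (SE; limma adjusted p = 0.0441). ERG25 stood at 12.79, 12.75 and 12.79 in the deletion, against 12.67, 12.70 and 12.67 in wild type. The gap was small but wider than the spread in either genotype, and ERG25 rose 1.07-fold, by 0.09 ± 0.02 (SE; limma adjusted p = 0.0471).

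Both calls lay close to the threshold. Without any one of the deletion arrays, or without wild type replicate 4 or 6, neither passed. Neither passed without the variance trend or with all probe sets tested, nor did ERG27 with a robust prior or ERG25 after median centring, with adjusted p-values (limma) over all alternatives from 0.000656 to 0.189 for ERG27 and from 0.0107 to 0.196 for ERG25.

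ERG26 and ERG28, the partners of ERG25 and ERG27, were decided by 1 wild type array; they and ERG24 were singled out after their values were seen. ERG26 stood at 10.73, 10.78 and 10.73 in deletion replicates 4, 5 and 6, against 10.94, 10.63 and 10.61 in wild type replicates 3, 4 and 6. The deletion arrays fell between replicate 3 and the other 2 wild type arrays, and the difference of 0.02 ± 0.09 (SE) did not pass (limma adjusted p = 0.932). Without replicate 3, ERG26 rose by 0.13 ± 0.03 (SE; limma adjusted p = 0.00871; 0.00871 to 0.993 over the alternatives). ERG28 stood at 10.94, 10.90 and 10.99 in the deletion, against 11.10, 10.86 and 10.77 in wild type. It showed the same order of arrays, with a difference of 0.03 ± 0.08 (SE) over all arrays that did not pass (limma adjusted p = 0.906). Without replicate 3 its difference was 0.12 ± 0.04 (limma adjusted p = 0.0324, with 0.0324 to 0.993 over the alternatives). In that fit 11.9% of all tested probe sets were called higher, and a joint rise of these genes was not tested.

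ERG11, the lanosterol 14-demethylase that azole drugs block, differed by 0.08 ± 0.03 (SE; limma adjusted p = 0.230) and passed without wild type replicate 3, by 0.10 ± 0.03 (limma adjusted p = 0.0266; 0.00783 to 0.501 over the alternatives). NCP1, the reductase that feeds electrons to Erg11 and to Erg5, differed by -0.03 ± 0.05 and fell by 0.08 in that fit (limma adjusted p = 0.0487; 0.0487 to 0.974 over the alternatives). ERG24, for the C-14 reductase, differed by -0.13 ± 0.08 (SE). Its values were 11.44, 11.34 and 11.33 in the deletion, against 11.67, 11.41 and 11.41 in wild type, so that replicate 3 alone stood high, and the difference was -0.04 ± 0.03 without it. ERG29, whose place in the pathway is less certain, differed by 0.08 ± 0.06.

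In the last steps, from zymosterol to ergosterol, 1 of 5 genes rose, 0 fell and 4 did not pass. ERG4 encodes the C-24(28) reductase that makes ergosterol itself. It stood at 11.69, 11.60 and 11.62 in deletion replicates 4, 5 and 6, against 11.47, 11.40 and 11.39 in wild type replicates 3, 4 and 6. The groups did not overlap, and ERG4 rose 1.16-fold, by 0.22 ± 0.03 (SE; limma adjusted p = 0.0180). The difference lay between 0.19 and 0.26 under every alternative, but the call ended when any one array other than wild type replicate 3 was left out (limma adjusted p up to 0.0870, and from 0.000273 over the alternatives).

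The other 4 genes of this stretch encode the C-24 methyltransferase (ERG6), the C-8 isomerase (ERG2), the C-5 desaturase (ERG3) and the C-22 desaturase (ERG5). They differed by 0.07 ± 0.03, 0.01 ± 0.03, 0.14 ± 0.08 and -0.04 ± 0.03 (SE). For ERG3, singled out after its values were seen, wild type replicate 3 stood at 11.69, below the other wild type arrays at 12.00 and 11.92 and below the deletion arrays at 12.09, 11.97 and 11.99. Without that array its difference was 0.05 ± 0.04 (limma adjusted p = 0.343; 0.0860 to 0.699 over the alternatives).

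**Figure D2:**
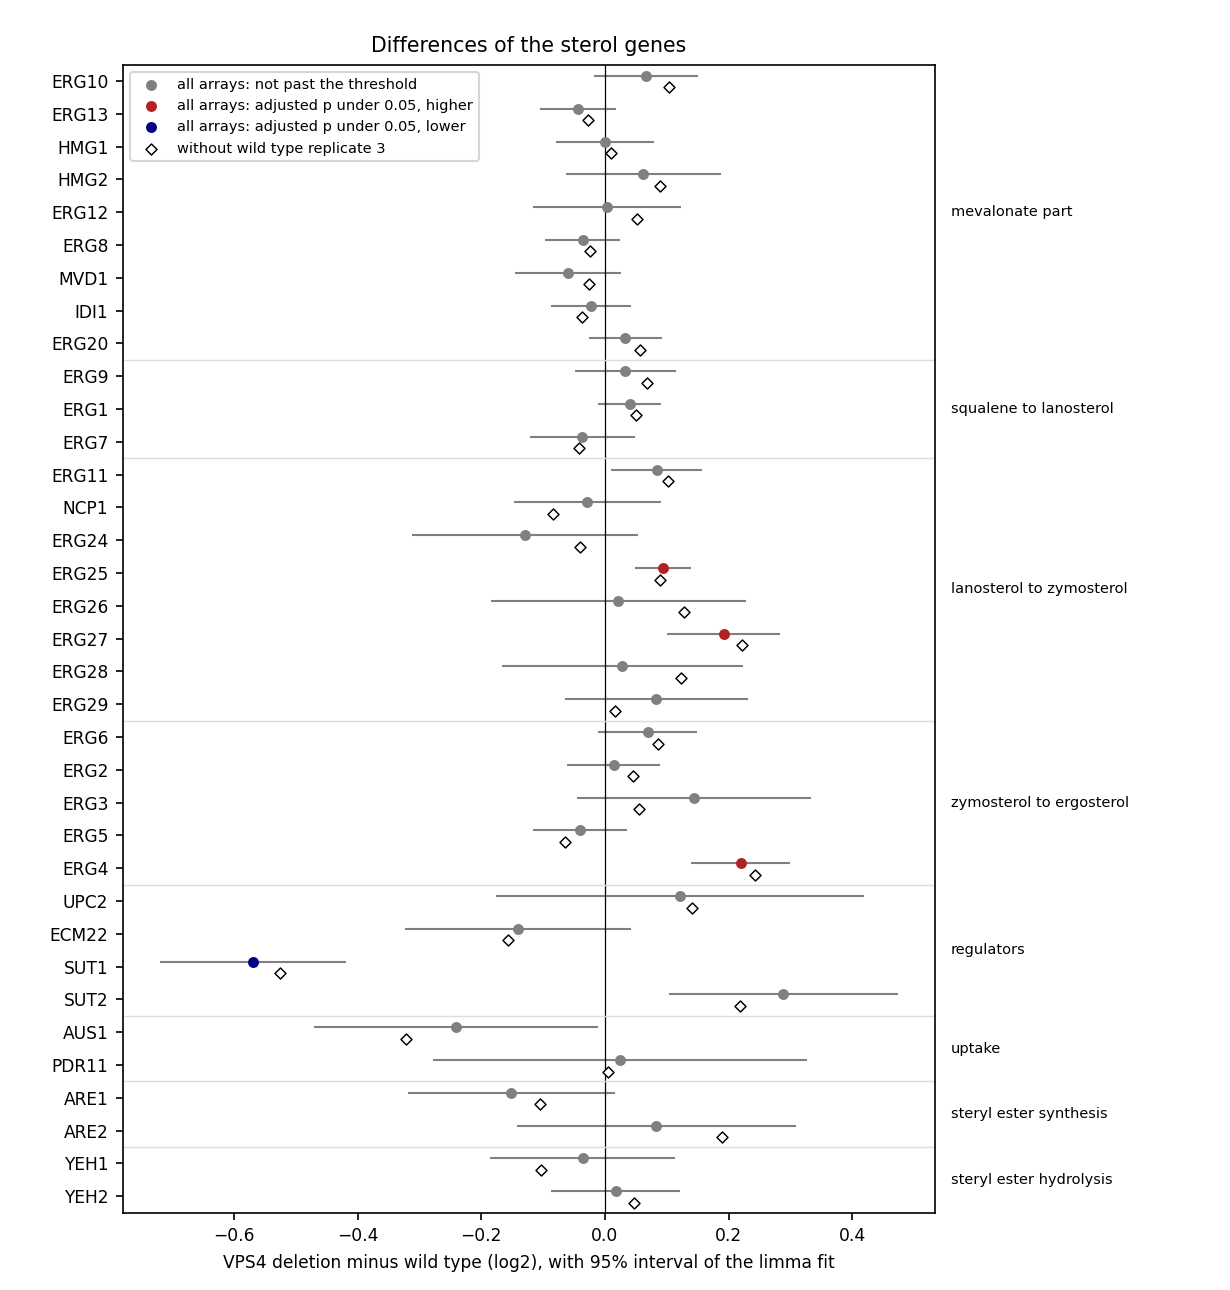
Differences of the 35 sterol genes (log2, VPS4 deletion minus wild type) with 95% intervals of the limma fit on all 6 arrays, and open diamonds for the difference without wild type replicate 3. SUT1 lies at -0.57, ERG4, ERG27 and ERG25 at 0.22, 0.19 and 0.09, and the diamonds of ERG24, ERG26 and ERG28 lie about 0.1 log2 from their filled points.

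Of the 4 regulators, 0 rose, 1 fell and 3 did not pass. SUT1 and SUT2 held the 2 widest differences among the 35 genes. SUT1 stood at 9.12, 9.21 and 9.28 in deletion replicates 4, 5 and 6, against 9.86, 9.77 and 9.68 in wild type replicates 3, 4 and 6. The highest deletion array lay 0.40 below the lowest wild type array, and SUT1 fell by 0.57 on the log2 scale, with an SE of 0.06 (limma adjusted p = 0.00693). It passed in each alternative except without deletion replicate 5 (limma adjusted p = 0.0592, from 9.07e-05 over the alternatives), and its difference lay between -0.61 and -0.53 in all of them.

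SUT2, the paralog of SUT1, stood at 9.18, 9.13 and 9.31 in the deletion, against 8.78, 8.97 and 9.00 in wild type. Here every deletion array lay above every wild type array, opposite to SUT1. The difference of 0.29 ± 0.08 (SE) did not pass over all arrays (limma adjusted p = 0.104), and SUT2 rose by 0.22 ± 0.06 without wild type replicate 3, its lowest wild type array (limma adjusted p = 0.0199; 0.0129 to 0.318 over the alternatives). No test was made of the difference between the 2 paralogs.

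UPC2 and ECM22 encode the zinc cluster activators of ERG genes and of genes of anaerobic growth. UPC2 stood at 5.72, 5.76 and 6.00 in deletion replicates 4, 5 and 6, against 5.74, 5.88 and 5.50 in wild type replicates 3, 4 and 6. Its groups overlapped and its spread was wide, and the difference of 0.12 ± 0.12 (SE) had a 95% interval of -0.18 to 0.42. ECM22 stood at 6.27, 6.36 and 6.34 in the deletion, against 6.43, 6.58 and 6.37 in wild type. The deletion arrays lay just below the wild type ones, and the difference of -0.14 ± 0.08 (SE) did not pass (limma adjusted p = 0.414).

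AUS1 and PDR11 encode ABC transporters of the plasma membrane that take up sterol when oxygen is short. AUS1 stood at 6.96, 6.99 and 6.97 in the deletion, against 7.05, 7.41 and 7.18 in wild type replicates 3, 4 and 6. The deletion arrays were close together and all below the wild type arrays, among which replicate 3 was lowest. AUS1 differed by -0.24 ± 0.10 (SE; limma adjusted p = 0.265), and fell by 0.32 without replicate 3 (limma adjusted p = 0.0209; 0.0209 to 0.500 over the alternatives). PDR11 stood at 5.99, 6.08 and 5.71 in the deletion, against 5.86, 6.08 and 5.76 in wild type. Its groups overlapped throughout, with a difference of 0.02 ± 0.13 (SE) and an interval of -0.28 to 0.33.

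In steryl ester metabolism 0 of 4 genes passed (limma). ARE1 and ARE2 encode the acyl-CoA sterol acyltransferases that make steryl esters. ARE1 stood at 8.30, 8.14 and 8.12 in deletion replicates 4, 5 and 6, against 8.43, 8.31 and 8.28 in wild type replicates 3, 4 and 6, a difference of -0.15 ± 0.07 (SE) in which 1 deletion array overlapped the wild type range. ARE2 stood at 8.74, 8.85 and 8.81 in the deletion, against 8.93, 8.59 and 8.63 in wild type. Replicate 3 was the highest of all 6 arrays for ARE2, which differed by 0.08 ± 0.09 (SE) with it and rose by 0.19 ± 0.05 without it (limma adjusted p = 0.0215; 0.0215 to 0.956 over the alternatives).

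YEH1 and YEH2 encode steryl ester hydrolases, of lipid droplets and of the plasma membrane. YEH1 stood at 9.75, 9.70 and 9.69 in the deletion, against 9.61, 9.82 and 9.81 in wild type. YEH2 stood at 9.71, 9.72 and 9.79 in the deletion, against 9.78, 9.71 and 9.68 in wild type. The groups overlapped for both genes, and the differences were -0.04 ± 0.06 for YEH1 and 0.02 ± 0.04 for YEH2 (SE), with intervals of -0.19 to 0.11 and -0.09 to 0.12.

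**Figure D3:**
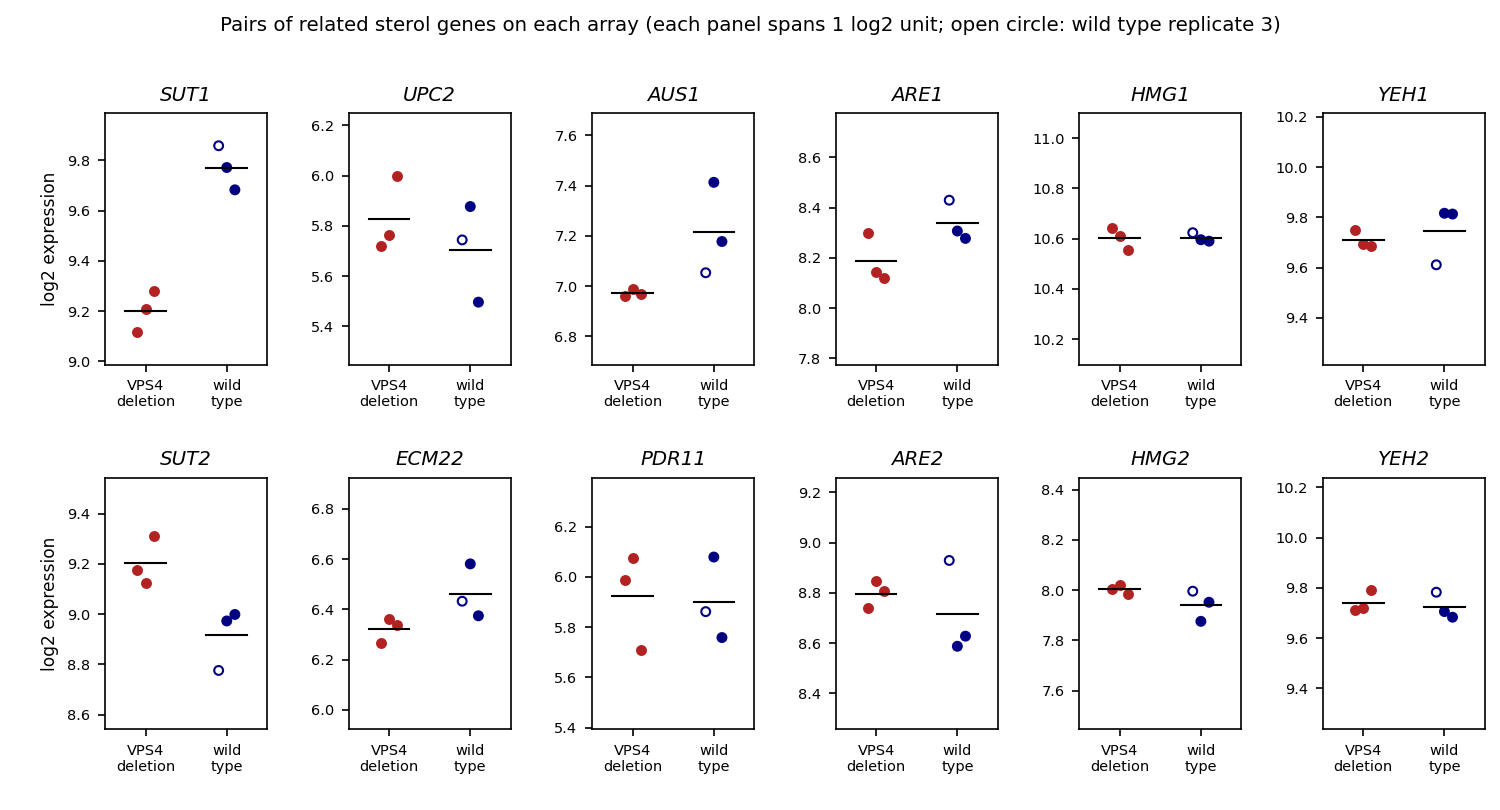
Log2 expression on each array, VPS4 deletion left and wild type right, for the 6 pairs of related sterol genes. Bars are group means of 3 arrays, every panel spans 1 log2 unit, and the groups do not overlap for SUT1 and AUS1 (lower in the deletion), SUT2 (higher) and ECM22 (lower by 0.14).

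Without wild type replicate 3 the list held more calls: 9 of 35 members rose (ERG10, ERG11, ERG25, ERG26, ERG27, ERG28, ERG4, SUT2 and ARE2) and 3 fell (NCP1, SUT1 and AUS1). These are 25.7% and 8.57% of the list, where 11.9% of all tested probe sets were called higher and 10.1% lower in that fit. The 4 genes called over all arrays were called there too. The median difference over the list was then 0.047. Replicate 3 was the highest wild type array for 22 of the 35 genes (62.9%) and for 43.1% of all tested probe sets, and its median departure from the mean of the other 2 wild type arrays was 0.056 over the list and 0.0033 over all tested probe sets. What set replicate 3 apart was not tested.

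A second list held 50 measured genes that handle sterols or bear on the pathway without being members. Its groups were sterol transfer, steryl acetate and ester turnover, control of HMG-CoA reductase, and haem and oxygen regulators. Further groups were haem and electron donors, other prenyl branches and wall genes of anaerobic growth. Of the 50 genes, 2 were called higher and 1 lower over all arrays, and 47 did not pass. The shares were 4.0% and 2.0% of the list, against 2.82% and 1.46% of all tested probe sets, and the median difference was 0.032.

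In sterol transfer, 1 of 15 genes rose and 0 fell. OSH6, an oxysterol-binding protein homologue known to carry phosphatidylserine rather than sterol, stood at 9.56, 9.54 and 9.53 in deletion replicates 4, 5 and 6, against 9.24, 8.92 and 9.04 in wild type replicates 3, 4 and 6. The groups were well apart, and OSH6 rose 1.39-fold, by 0.47 ± 0.08 (SE; limma adjusted p = 0.0271). Without replicate 3 the difference was 0.56 ± 0.04, and the call ended without any one of the other 5 arrays (limma adjusted p up to 0.130, and from 2.25e-05 over the alternatives).

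Among the 5 haem and oxygen regulators 1 rose and 0 fell. MGA2, the membrane-tethered activator of the fatty acid desaturase gene OLE1 and of hypoxic genes, stood at 8.17, 8.11 and 8.13 in the deletion, against 7.75, 7.79 and 7.78 in wild type. Both groups were tight and far apart, and MGA2 rose 1.29-fold, by 0.36 ± 0.05 (SE; limma adjusted p = 0.0115). The call ended without any one of the deletion arrays (limma adjusted p up to 0.0702, and from 0.00106 over the alternatives). SPT23, the paralog of MGA2, differed by 0.05 ± 0.05 and did not pass.

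Of 3 genes for haem and electron donors, 1 fell and 0 rose. HEM13, the oxygen-requiring coproporphyrinogen oxidase of haem synthesis, stood at 9.35, 9.36 and 9.31 in the deletion, against 9.55, 9.53 and 9.49 in wild type. The groups did not overlap, and HEM13 fell by 0.18 on the log2 scale, with an SE of 0.04 (limma adjusted p = 0.0475). The call ended without any one array other than wild type replicate 3 and when all probe sets of the array were tested (limma adjusted p from 0.00776 to 0.193 over the alternatives). DAP1 went the other way, by 0.26 ± 0.06 (SE) with groups that did not overlap, and did not pass (limma adjusted p = 0.0677; 0.00229 to 0.249 over the alternatives). CYB5 differed by -0.01 ± 0.04 and did not pass.

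In the other groups 0 genes passed (limma), and the gene with the smallest p was PRY3 in steryl acetate and ester turnover, UBC7 in the control of HMG-CoA reductase, NUS1 in the other branches and TIR2 among the anaerobic wall genes. PRY3, which encodes a sterol-binding protein of the cell wall, stood at 8.16, 8.03 and 8.12 in the deletion, against 7.84, 7.42 and 7.62 in wild type, a difference of 0.48 ± 0.11 (SE; limma adjusted p = 0.0649). All deletion arrays lay above all wild type arrays, and PRY3 rose by 0.59 ± 0.08 without replicate 3 (limma adjusted p = 0.000499; 0.000499 to 0.233 over the alternatives).

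UBC7, for the ubiquitin-conjugating enzyme of ER-associated degradation, stood at 10.34, 10.40 and 10.42 in deletion replicates 4, 5 and 6, against 10.38, 10.25 and 10.22 in wild type replicates 3, 4 and 6. The groups overlapped through replicate 3, and the difference of 0.10 ± 0.05 (SE) did not pass (limma adjusted p = 0.344). Without that array UBC7 rose by 0.15 ± 0.03 (SE; limma adjusted p = 0.00781; 0.00781 to 0.644 over the alternatives). NUS1, for a subunit of the cis-prenyltransferase of dolichol synthesis, stood at 8.59, 8.65 and 8.64 in the deletion, against 8.53, 8.48 and 8.51 in wild type. The groups did not overlap, and the difference of 0.12 ± 0.04 (SE) passed neither with replicate 3 (limma adjusted p = 0.214) nor without it (0.0750; 0.0550 to 0.494 over the alternatives).

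TIR2, a wall mannoprotein gene, stood at 4.74, 4.59 and 4.64 in the deletion, against 4.00, 4.43 and 4.41 in wild type. Replicate 3 was the lowest of all 6 arrays, and TIR2 differed by 0.38 ± 0.13 (SE; limma adjusted p = 0.203) with it and by 0.24 ± 0.10 without it (limma adjusted p = 0.124; 0.0738 to 0.462 over the alternatives). Of the 8 anaerobic wall genes, which Upc2 activates when oxygen is short, differences ran from -0.27 for TIR4 to 0.38 for TIR2, and DAN1 was not above background on any array. Without replicate 3, 11 genes of the second list rose and 1 fell, which is 22.0% and 2.0% of the list, where 11.9% of all tested probe sets were called higher and 10.1% lower in that fit.

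**Figure D4:**
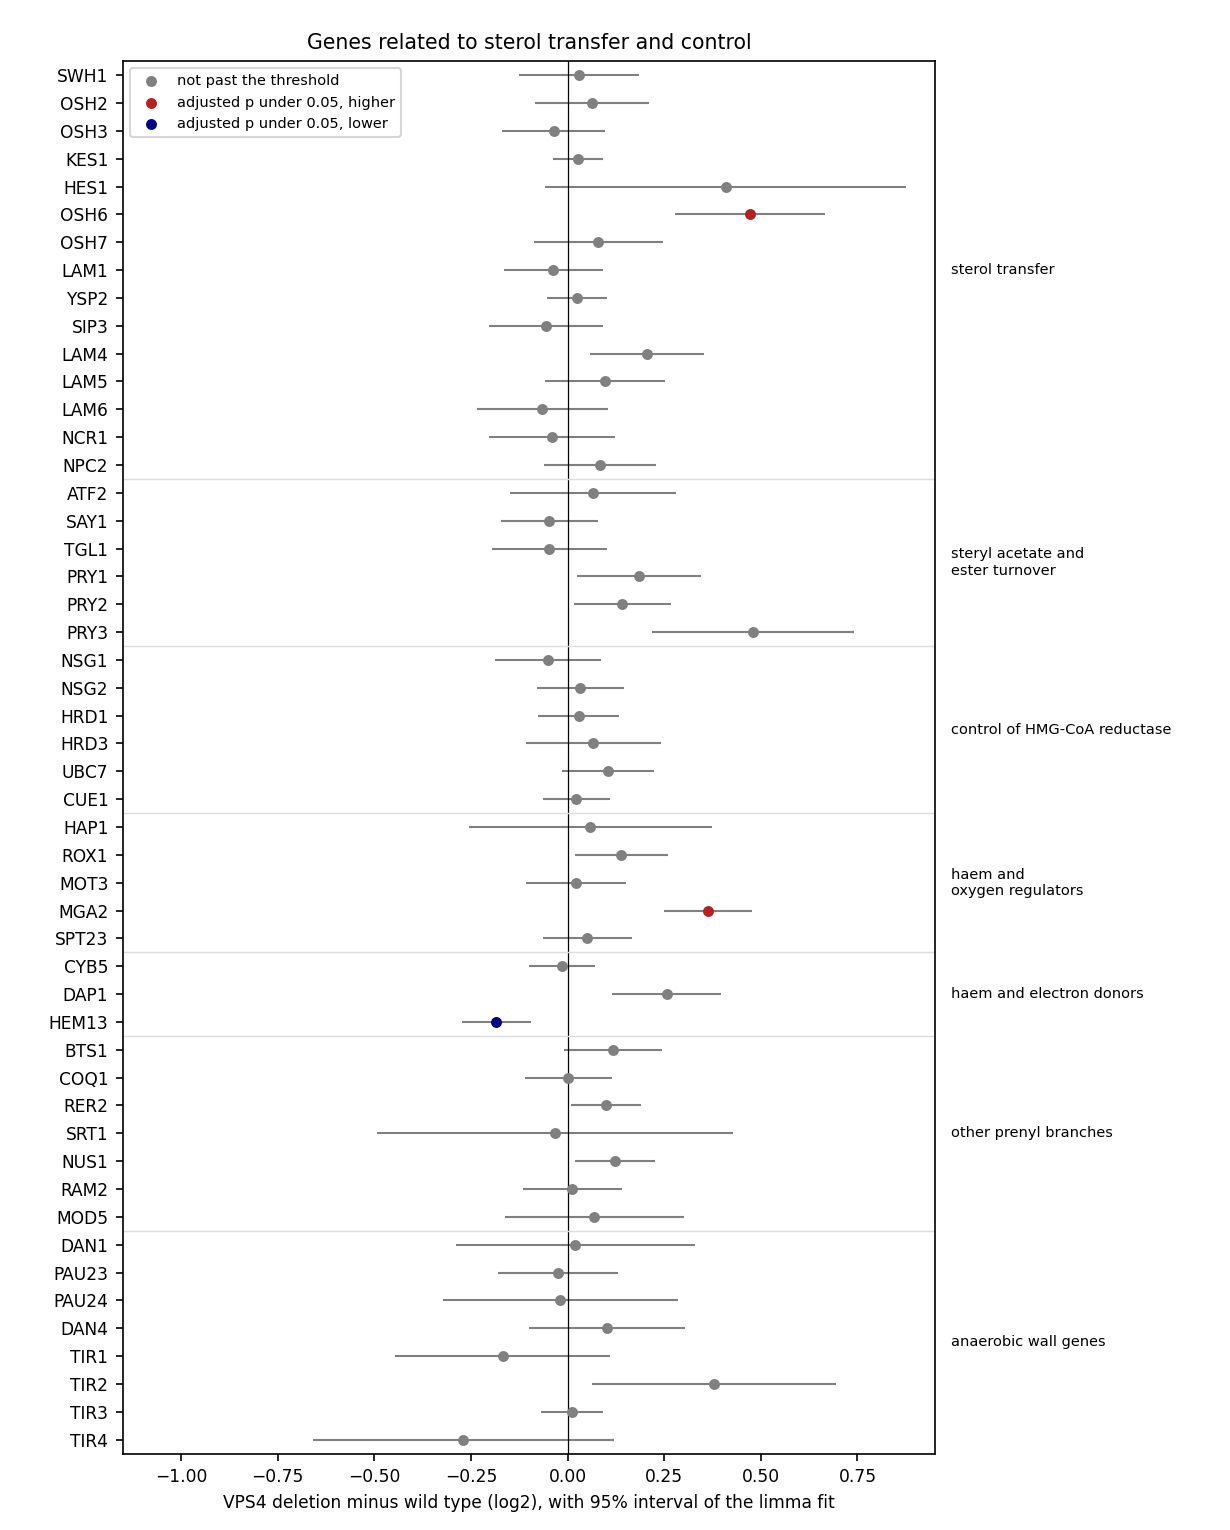
Differences (log2, VPS4 deletion minus wild type) with 95% intervals of the limma fit for the 50 genes of the second list, ordered by group. OSH6 at 0.47 and MGA2 at 0.36 were called higher and HEM13 at -0.18 lower, while PRY3 at 0.48 had a wider interval and did not pass.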

How the data were processed

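RNA of 3 VPS4 deletion and 3 wild type samples was measured on Affymetrix arrays. The deposited table holds log2 values per probe set that the authors made with GCRMA, as listed in the submitters' processing notes (version not given in the sources used here). Their log base was taken from the range of the values and from GCRMA's usual output. GCRMA shrinks differences of dim probe sets, and arrays carry no read depth. No 2 arrays held the same values.

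Gene names came from the platform annotation, brought up to date by gene ID with assembly R64. Of 10928 probe sets, 5498 (5449 genes) belonged to S. cerevisiae and entered limma 3.58.1 under R 4.3.3 (lmFit, eBayes with a mean-variance trend, two-sided, genotype as the only term, Benjamini-Hochberg over all 5498, threshold 0.05). Of several probe sets for a gene, which among the listed genes touched only PAU23, the one with the highest mean was used. An array's background was percentile 95 of its 1747 probe sets annotated to another yeast. The fit was tested on simulated data.

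Members and both lists were chosen with earlier results of these data known. All 35 members are named. Array values are given for members past the threshold, non-overlapping members differing by at least 0.2, the 5 largest differences and the 6 related pairs, and, in the second list, for genes past the threshold and for the smallest p in each group; any other member with array values was singled out after its values were seen. Alternatives were no variance trend, a robust prior, leaving out dim or ambiguous probe sets, quantile normalization, median centring, weights for the arrays, a test of all probe sets, leaving out each array and the title number as a block. The block fit takes its genotype difference from the title numbers shared by both genotypes, and so leaves out wild type replicate 3 and deletion replicate 5. A pseudocount was not varied because the values are log2. Promoter motifs were not analysed here.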

Additional observations from a re-analysis of the deposited data

How the results depend on the processing

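Over 15 alternatives, none of the 85 genes of both lists had a called difference that changed sign. Among values past the threshold neither over all arrays nor under the alternative, 62 changed sign. The count of members, 3 higher and 1 lower, became 1 higher without the variance trend, 1 higher with all probe sets tested, and 7 higher and 2 lower with array weights. Leaving out 1 array at a time gave 0 to 9 members higher and 0 to 3 lower. The higher count was 9 without wild type replicate 3 and 0 without any one of the other 5 arrays, and the lower count was 0 without deletion replicate 5. Over all tested probe sets, the 155 higher and 80 lower also fell in those 5 fits, to 17 to 81 and 5 to 37. The second list, with 2 higher and 1 lower, gave 10 higher with array weights, 0 lower with all probe sets tested, and 0 to 11 higher and 0 to 1 lower with 1 array left out. The median difference of the members, 0.022, lay between -0.0011 (without wild type replicate 6) and 0.047 with 1 array left out. Median centring moved the median over all tested probe sets from -0.0019 to -0.021, and it lowered each member's difference by the same amount.

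With the title number as a replicate block, 9 members were higher and 2 lower, their median was 0.056, and 9 genes of the second list were higher. Only numbers 4 and 6 occur in both genotypes, so wild type replicate 3 and deletion replicate 5 do not enter the genotype difference of that fit. It is therefore not a check separate from leaving out wild type replicate 3. Deviations of same-numbered arrays from their group means correlated by 0.021 and -0.059. The wild type mean includes replicate 3, which stood apart, so these values cannot decide whether shared numbers mark pairs. The labels do not say what the numbers mark, and they were not taken as pairs. Over all tested probe sets, 155 were higher and 80 lower, against 478 and 380 with the block, 600 and 436 with array weights, and 17 to 656 and 5 to 556 with 1 array left out. The number of arrays, 3 a group, limits what could be called.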
